A study of Macaca mulatta with 449 samples.

Results

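The 5 dopamine receptor genes DRD1, DRD2, DRD3, DRD4 and DRD5 were followed through the brain of the rhesus macaque (Macaca mulatta). They were picked by their symbols and not by a rule on their values, though with earlier results of these data known. They are 5 of the 30807 genes in the count table. Their identifiers were ENSMMUG00000005147 for DRD1, ENSMMUG00000014334 for DRD2, ENSMMUG00000022936 for DRD3, ENSMMUG00000002658 for DRD4 and ENSMMUG00000002783 for DRD5. The samples analysed here were 51 dissected sub-regions from each of 8 macaques, from which the study sequenced ribosomal RNA-depleted total RNA, with 1 library per sub-region and animal. The 4 young animals were 3.2 to 5 years old, with animals 4 and 10 female and animals 7 and 8 male. The 4 mid-aged animals were 9.8 to 10 years old, with animals 6 and 11 female and animals 2 and 3 male. The labels name no treatment and no genotype for any of them. Of the sub-regions, 31 were cortical gyri and lobules, and all 51 fell into 16 region groups, among them the cortex, the striatum (STR) and the hippocampus (HIP).

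Dopamine receptors are G protein-coupled receptors in 2 classes. The D1-like receptors, encoded by DRD1 and DRD5, couple to stimulatory G proteins and raise cyclic AMP. The D2-like receptors, encoded by DRD2, DRD3 and DRD4, couple to inhibitory G proteins, lower cyclic AMP and open potassium channels. In the striatum, DRD1 marks the spiny projection neurons of the direct pathway and DRD2 those of the indirect pathway. DRD2 also serves as an autoreceptor on dopamine neurons of the substantia nigra (SN) and ventral tegmental area (VTA), and dopamine acts through it in the pituitary (PIT) to restrain prolactin release.

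Each library held between 7784678 and 31083490 counted reads, with a median of 10698602. Levels are counts per 1000000 counts of the library (CPM) after TMM scaling, which adjusts library sizes for differences in composition, and are given as mean ± SD over the 8 animals. Gene length was not taken into account, so levels are compared between places for 1 gene and not between receptors. In these tissue pieces, fewer cells of a type and less RNA per cell cannot be told apart.

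Several libraries stood apart from the others of their sub-region. In the globus pallidus (GP), the summed level of the medium spiny neuron markers was 662 CPM in animal 3 and 317 to 396 CPM in the other animals, against 1954 to 4930 CPM in the striatal libraries. In the hypothalamus (HTHA), the summed level of 5 cortical excitatory neuron markers was 646 CPM in animal 6 and 11.9 to 18.4 CPM in the others. The same sum was 311 CPM in the accumbens nucleus (ACb) of animal 10 and 156 CPM in the putamen (PUT) of animal 3, against a median of 9.22 CPM in ACb and 4.79 CPM in PUT. In VTA, the 5 measured dopamine neuron markers summed to 195 to 1094 CPM, against 4823 to 9232 CPM in SN and 180 to 283 CPM in HTHA. By median counts, ALDH1A1 was the largest part of this sum, with 47752 in SN and 4006 in VTA, against 14501 and 1675 for TH. ALDH1A1 is not particular to dopamine neurons here, with 5597 to 9044 counts per animal in the striatum, where SLC6A3 had 0 to 1. Comparisons of GP with the striatum are also given without animal 3, and those of HTHA without animal 6.

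All 5 genes differed among the 51 sub-regions by edgeR's quasi-likelihood F test with the animal as a block (Benjamini-Hochberg false discovery rate, FDR, of at most 2.0e-50), as did 99.8% of the genes tested. DRD1 held 286252 counts in all and was counted in every library, and DRD2 held 115905 counts and was also counted in each of them. DRD3 held 9757 counts and was at 0 in 61 libraries. DRD4 held 1511 counts and was at 0 in 88 libraries, with at most 31 counts in any library. DRD5 held 10906 counts and was at 0 in 20 libraries. DRD1 and DRD3 each had 3 sub-regions whose 8 libraries all lay above every cortical library, and these were ACb, the caudate nucleus (CN) and PUT. DRD2 had 6, the same 3 with SN, VTA and PIT. DRD4 and DRD5 had 0. The share of all genes with such sub-regions was not counted.

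**Figure D1:**
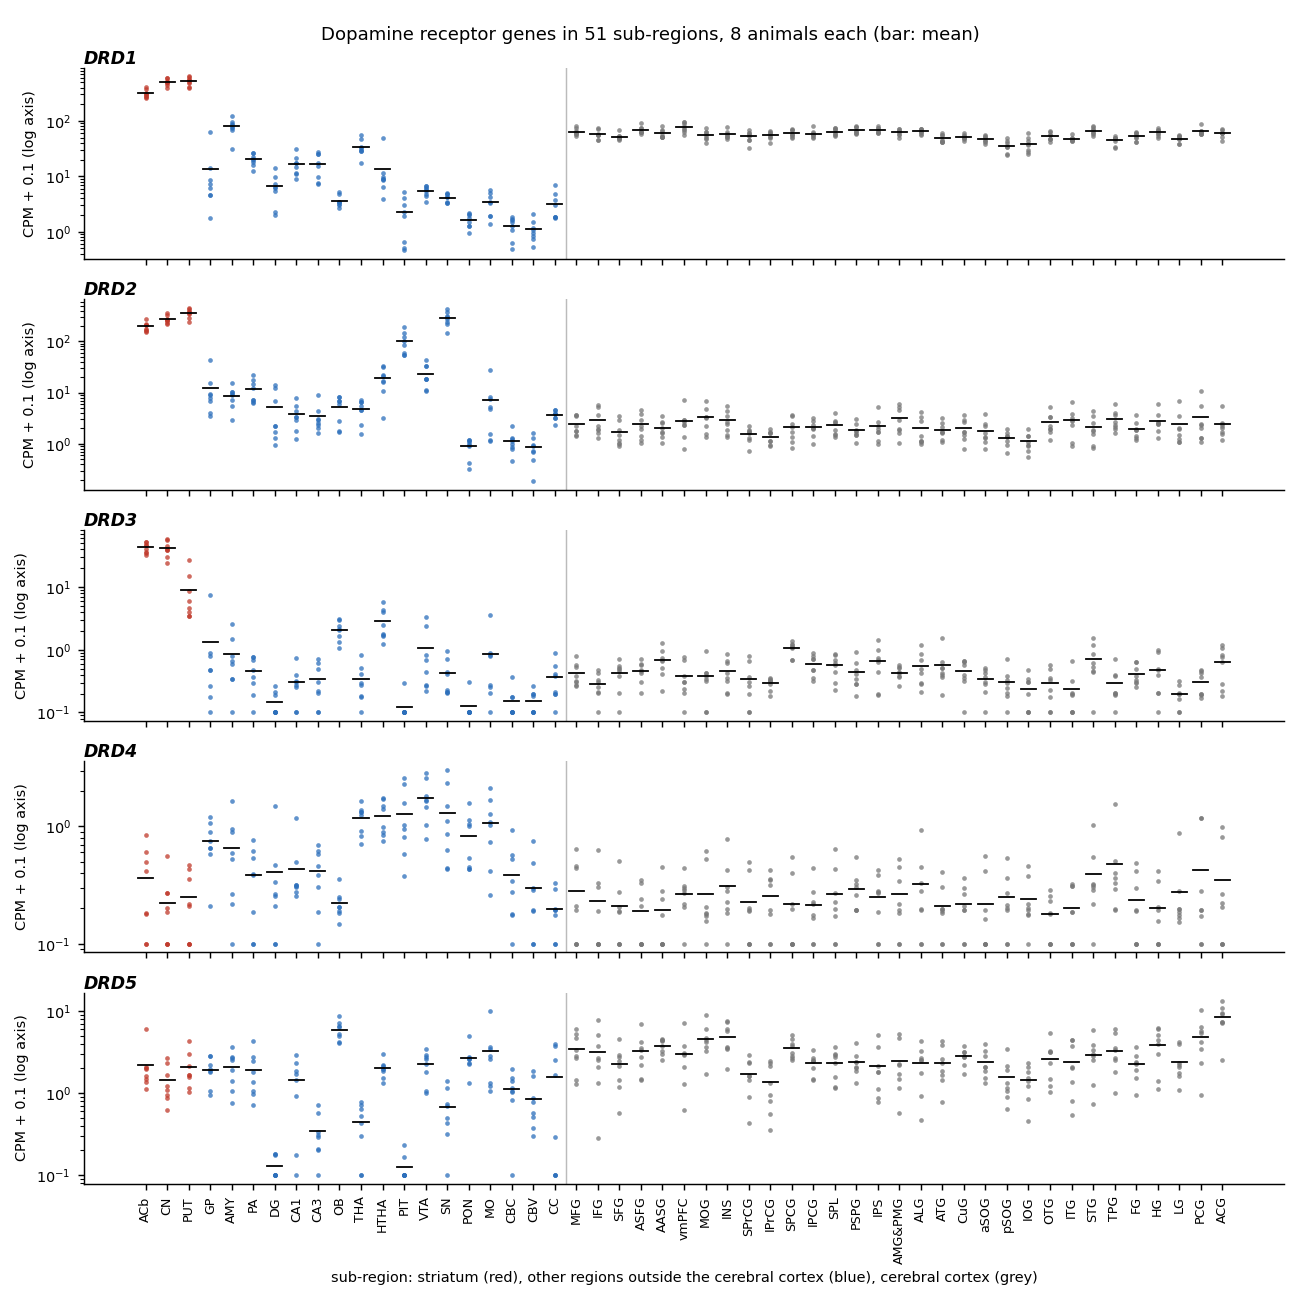
Levels of the 5 dopamine receptor genes in the 51 sub-regions, 1 panel per gene, as CPM + 0.1 on a log axis. Points are the 8 animals and bars their mean, in red for the striatum, grey for the cortex and blue for the other regions. DRD1 forms a cortical plateau under the striatal points, DRD2 reaches striatal levels in SN, and DRD4 stays below 3 CPM in every library.

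DRD1 was highest in the dorsal striatum and was present throughout the cortex. In PUT its lowest, median and highest libraries were at 389, 525 and 638 CPM (519 ± 90.4), in CN at 384, 501 and 605 CPM (505 ± 74.4) and in ACb at 255, 298 and 403 CPM (313 ± 52.1). No library of another sub-region reached these values, the next being the amygdala (AMY) at 79.8 ± 25.7 CPM with a range from 30.6 to 122 CPM. The 31 cortical sub-regions followed in a narrow band, from 76.1 ± 14.3 CPM in the ventromedial prefrontal cortex (vmPFC) down to 38.6 ± 11.7 CPM in the inferior occipital gyrus (IOG) and 35.4 ± 8.56 CPM in the posterior superior occipital gyrus (pSOG). Below the cortex came the thalamus (THA) at 34.2 ± 12 CPM, the entorhinal and perirhinal cortex (PA) at 20.2 ± 4.81 CPM, and the CA3 and CA1 fields of the hippocampus at 16.7 ± 8.11 and 16.4 ± 7.08 CPM. The dentate gyrus (DG) held 6.55 ± 3.87 CPM. The lowest DRD1 levels were in the cerebellar cortex at 1.17 ± 0.506 CPM and the cerebellar vermis at 1.01 ± 0.487 CPM.

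Neighbours in the order of DRD1 levels were compared within animals by an exact sign-flip test over the 8 animals, whose smallest possible p is 0.0078125. Of 50 neighbouring pairs, 5 had an unadjusted p under 0.05 and 0 passed after adjustment over the 50 pairs. The steps seen in 8 of 8 animals included CN above ACb by 0.69 ± 0.27 on the log2(CPM + 0.5) scale, ACb above AMY by 2.03 ± 0.50, THA above PA by 0.71 ± 0.50 and VTA above SN by 0.35 ± 0.32 (exact p = 0.0078125, adjusted 0.0977 for each). PUT and CN did not differ beyond the spread between animals (0.03 ± 0.23, higher in 6 of 8, exact p = 0.695). With so many pairs, a single pair could not pass the adjustment at this number of animals, so a pair that did not pass is not shown to be equal. Between cortical neighbours the clearest step was vmPFC above the anterior superior frontal gyrus, by 0.14 ± 0.18 and in 7 of 8 animals (exact p = 0.0391, adjusted 0.391).

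DRD2 had its peaks in the striatum, SN and PIT. In PUT its lowest, median and highest libraries were at 239, 367 and 459 CPM (361 ± 71.9), in SN at 149, 284 and 431 CPM (286 ± 90.7), in CN at 218, 260 and 365 CPM (273 ± 49.1) and in ACb at 155, 193 and 275 CPM (197 ± 40.6). The ranges of PUT, SN, CN and ACb overlapped. PIT was lower, with 53.9, 95.0 and 189 CPM (101 ± 48.4). VTA held 10.8, 18.6 and 42.7 CPM (23.3 ± 11.7), and HTHA 3.16, 18.8 and 32.7 CPM (19.1 ± 9.92).

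In the cortex DRD2 was low, between 1.02 ± 0.439 CPM in IOG and 3.27 ± 3.31 CPM in the posterior cingulate gyrus (PCG). Between the peaks and the cortex lay GP at 12.2 ± 12.8 CPM, PA at 11.6 ± 5.90 CPM, AMY at 8.64 ± 3.66 CPM and the medulla oblongata (MO) at 7.02 ± 8.66 CPM. The means of GP and MO each rested on 1 library, at 42.5 CPM in the GP of animal 3 and 27.3 CPM in the MO of animal 4, while the others reached at most 15.1 and 7.97 CPM. Among neighbours in the DRD2 order, 4 of 50 pairs had an unadjusted p under 0.05 and 0 passed after adjustment. The largest step was PIT above VTA, by 2.11 on the log2(CPM + 0.5) scale and in 8 of 8 animals.

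DRD3 was concentrated in ACb and CN. In ACb its lowest, median and highest libraries were at 32.3, 43.4 and 53.2 CPM (42.9 ± 8.12), and in CN at 24.3, 39.9 and 58.9 CPM (41.5 ± 11.6). The putamen held 3.35, 5.28 and 27.2 CPM (9.01 ± 8.29), with animals 4 and 3 at 27.2 and 14.9 CPM and the other 6 at or below 8.72 CPM. Outside the striatum, HTHA held 2.77 ± 1.61 CPM and the olfactory bulb (OB) 1.98 ± 0.734 CPM. The GP mean of 1.24 CPM came from animal 3 at 7.41 CPM, with the other animals at 0 to 0.804 CPM. In the cortex the highest mean was 0.959 ± 0.253 CPM in the superior postcentral gyrus and the lowest 0.0955 ± 0.0773 CPM in the lingual gyrus. In PIT and the pons (PON), 7 of 8 libraries were at 0 and the remaining library of each had 2 counts.

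DRD4 was near the detection limit in most of the brain. Its highest means were 1.63 ± 0.708 CPM in VTA, 1.20 ± 0.945 CPM in SN, 1.18 ± 0.815 CPM in PIT, 1.13 ± 0.408 CPM in HTHA and 1.08 ± 0.326 CPM in THA. In the striatum it was at 0.124 to 0.267 CPM, and in the cortical sub-regions at 0.0793 to 0.379 CPM. At this depth its order within the cortex could not be resolved, since a cortical library held between 0 and 21 DRD4 counts.

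DRD5 was highest in the cingulate cortex and OB. In the anterior cingulate gyrus (ACG) its lowest, median and highest libraries were at 2.41, 8.21 and 13.1 CPM (8.31 ± 3.15), and in OB at 3.95, 5.75 and 8.60 CPM (5.84 ± 1.6). The insula followed at 4.79 ± 2.04 CPM, PCG at 4.78 ± 2.91 CPM and the medial orbital gyrus at 4.52 ± 2.16 CPM. The ranges of these sub-regions overlapped, and the lowest cortical mean was 1.26 ± 0.833 CPM in the inferior precentral gyrus. In the hippocampus DRD5 held 1.33 ± 0.991 CPM in CA1, 0.243 ± 0.205 CPM in CA3 and 0.0294 ± 0.0406 CPM in DG, where 5 of 8 libraries were at 0 and no library had more than 1 count. Taking 3 counts per library as the floor, the mean DRD5 level of CA1 was at least 4.70-fold higher than that of DG. This did not hold in every animal, as CA1 itself held 0 counts in animal 10 and 1 in animal 11.

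The 3 striatal nuclei were compared with the animal as a block, and a gene was called at an FDR under 0.05 and a fold change above 2. In ACb against CN and PUT, 5.13% of genes were called, and 1 of the 4 receptor genes tested was. DRD3 was higher in ACb, by 1.3 on the log2 scale (SE 0.21, FDR 4.7e-05) and in 8 of 8 animals against the mean of CN and PUT. Against CN alone the difference was 0.08 ± 0.46 on the log2(CPM + 0.5) scale, positive in 4 of 8 animals (exact sign-flip p = 0.789), so that the gap lay on the side of PUT. DRD1 was lower in ACb in 8 of 8 animals (log2 fold change −0.71, SE 0.08, FDR 7.8e-07) and so was DRD2 (−0.67, SE 0.09, FDR 6.1e-06), both below the fold asked for. DRD5 did not pass (0.36, SE 0.25, FDR 0.260), and DRD4 had too few counts to be tested.

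In CN against PUT, 4.92% of genes were called, and again DRD3 was the 1 receptor gene called among 4 tested. It was higher in CN by 2.41 on the log2 scale (SE 0.26, FDR 1.57e-06), in 8 of 8 animals, and by 2.28 to 2.68 when any animal was left out. DRD2 was lower in CN in 8 of 8 animals, by less than the fold asked for (−0.37, SE 0.10, FDR 0.00724). DRD1 did not differ between CN and PUT beyond the spread (−0.01, SE 0.09, FDR 0.953), and DRD5 did not pass (−0.54, SE 0.30, FDR 0.189). The animals with high DRD3 in PUT, animals 4 and 3, had PDYN at 502 and 195 CPM there, where the other animals had 53.5 to 262 CPM. PDYN encodes prodynorphin, a peptide precursor of direct-pathway neurons.

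**Figure D2:**
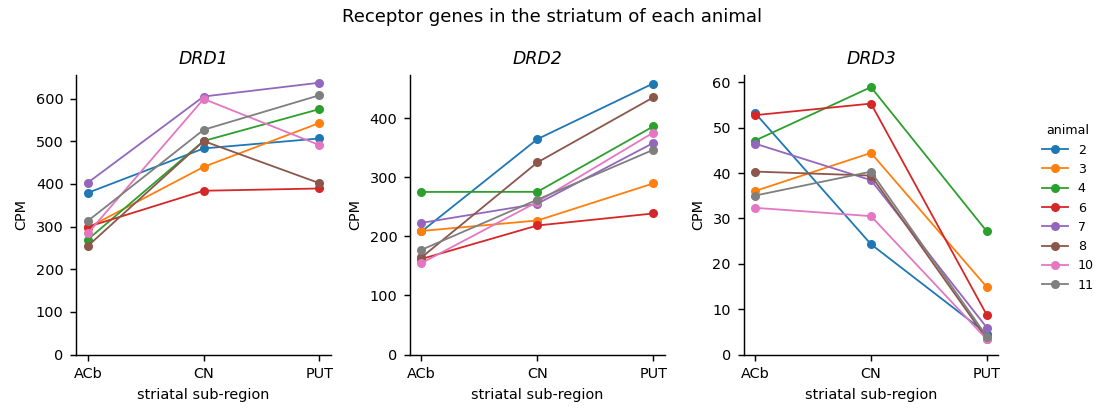
DRD1, DRD2 and DRD3 levels in CPM in ACb, CN and PUT, with 1 line per animal. DRD1 and DRD2 have their lowest means in ACb, while DRD3 is lower in PUT than in CN in 8 of 8 animals.

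The balance of the D1 and D2 receptor transcripts was followed as log2 of the DRD1 to DRD2 count ratio, which can be compared between places. It was 0.68 ± 0.32 in ACb, 0.89 ± 0.28 in CN and 0.53 ± 0.36 in PUT. CN lay above PUT by 0.36 ± 0.28 in 8 of 8 animals (exact sign-flip test, p = 0.0078125, the smallest possible with 8 animals, adjusted 0.0234 over 3 comparisons). The same difference without pairing the animals had an adjusted p of 0.132 by an exact permutation test. ACb did not differ from CN (−0.21 ± 0.40, exact p = 0.203) or from PUT (0.15 ± 0.49, exact p = 0.414) beyond the spread. Elsewhere the ratio ran from 4.01 to 5.43 among the cortical sub-regions, and was 3.25 ± 1.13 in AMY, −1.99 ± 0.76 in VTA, −5.91 ± 1.86 in PIT and −6.08 ± 0.49 in SN.

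The other genes of the pathway were taken from 5 lists. Between ACb and the dorsal striatum, 0 of 15 tested G proteins and effectors were higher in ACb and 2 were lower, ADCY1 (−1.42), a calcium-stimulated adenylyl cyclase, and PLCB1 (−1.15), a phospholipase C (median −0.12, all genes −0.01). Of 6 tested genes for dopamine synthesis, storage and clearance, 2 were higher in ACb, the synthetic enzymes DDC (1.98) and TH (1.69), and 0 were lower (median 0.46). Of 19 regulators of the receptors, 0 were higher and 2 were lower, PDE10A (−2.25), a striatal phosphodiesterase, and RGS4 (−1.49), which speeds the shut-off of inhibitory G proteins (median 0.03). Among the 5 tested direct-pathway genes PDYN (1.24) was higher and 0 were lower (median −0.75), and of the 4 tested indirect-pathway genes 0 were called (median −0.26).

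Between CN and PUT, 1 gene was higher in CN in most of the lists and 0 were lower in any. These were ADCY3 (1.10), an adenylyl cyclase, of 15 G proteins and effectors, PDYN (2.47) of 5 direct-pathway genes, PENK (1.01), the enkephalin precursor of indirect-pathway neurons, of 4, and NCS1 (1.06), a calcium sensor that binds the D2 receptor, of 19 regulators. In the dopamine synthesis, storage and clearance list, 2 of 6 were higher in CN, DDC (2.51) and MAOB (1.40), a dopamine-degrading oxidase. DDC had at most 71 counts per animal over the 3 striatal libraries together. The list medians were 0.01, 0.61, −0.04, 0.23 and 0.88 in the order named, against 0.02 for all genes.

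For comparisons between region groups, the counts of a group's sub-regions were summed within each animal, and every group compared with the cortex shared the same cortical libraries. In the striatum against the cortex, 16.8% of genes were called, and 3 of 5 receptor genes were called higher in the striatum. DRD1 was at a mean of 466 against 60.5 CPM (log2 fold change 2.95, SE 0.32, FDR 3.0e-14). DRD2 was at 287 against 2.38 CPM (6.99, SE 0.43, FDR 1.4e-28), and DRD3 at 33.5 against 0.370 CPM (6.42, SE 0.45, FDR 1.3e-24). Each was higher in 8 of 8 animals, and no striatal value overlapped a cortical one. DRD4 (0.05, SE 0.36, FDR 0.924) and DRD5 (−0.68, SE 0.36, FDR 0.109) did not pass.

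Of the direct-pathway genes, 5 of 5 tested were higher in the striatum than in the cortex, among them TAC1 (3.69), the substance P precursor, and PDYN (3.26) (median 3.26, all genes −0.01). The transcription factor gene ISL1 had 214 to 419 counts per animal in the striatum and 0 to 6 in the cortex. Of the indirect-pathway genes, 3 of 4 were higher, GPR6 (6.42), an orphan receptor, PENK (5.38) and SP9 (1.71), a transcription factor (median 3.55). Of the 19 regulators, 5 were higher, led by RGS9 (5.93), PDE10A (4.99) and PPP1R1B (4.10), the last encoding DARPP-32, a phosphatase inhibitor downstream of D1 receptors, and 3 were lower, RGS4 (−2.29) and the receptor kinases GRK3 (−1.55) and GRK2 (−1.28) (median 0.21). Of 16 G proteins and effectors, 2 were higher, the adenylyl cyclases ADCY5 (3.24) and ADCY3 (1.57). The 3 that were lower were GNAS (−1.52), a stimulatory G protein subunit, and KCNJ3 (−3.71) and KCNJ6 (−3.50), subunits of G protein-gated potassium channels (median −0.30). KCNJ6 had 3 to 18 counts per animal in the striatum and 617 to 2289 in the cortex. In the dopamine synthesis, storage and clearance list 2 of 9 were higher, DDC (3.13) and TH (2.30), and 1 was lower, the noradrenaline-forming enzyme gene DBH, with 0 to 7 counts in the striatum and 149 to 489 in the cortex (median −0.10). DDC had 23 to 71 counts per animal in the striatum and 24 to 82 in the cortex. TH had 7 to 49 and 31 to 98, so both folds rest on few counts.

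In the hippocampus against the cortex, 12.4% of genes were called, with 3 of 5 receptor genes lower. DRD1 was lower by 2.19 on the log2 scale (fold change −2.19, SE 0.31) at means of 13.5 against 60.5 CPM, and DRD5 was at −2.44 (SE 0.40), both in 8 of 8 animals. DRD3 was called at −1.22 (SE 0.52, FDR 0.0465), lower in 7 of 8, but this call was lost without animal 6 (−0.97) and with DESeq2 in place of edgeR (−1.24, FDR 0.0941). DRD4 (0.90) and DRD2 (0.84) were under the fold asked for. In AMY, 9.66% of genes were called, and DRD2 (1.90, SE 0.37) and DRD4 (1.59, SE 0.39) were higher than in the cortex, while DRD3 (0.94, FDR 0.129), DRD1 (0.40, FDR 0.287) and DRD5 (−0.62, FDR 0.2) did not pass. In PA, with 8.68% called, DRD1 was lower (−1.58, SE 0.31) and DRD2 higher (2.31, SE 0.37), each in 8 of 8 animals, and DRD4 (0.81, FDR 0.127), DRD5 (−0.76, FDR 0.114) and DRD3 (−0.13, FDR 0.887) did not pass.

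In THA, 19.7% of genes were called. DRD4 was higher (2.77, SE 0.34) and DRD5 lower (−3.06, SE 0.48) than in the cortex, both in 8 of 8 animals. DRD2 was called higher (1.11, SE 0.38, FDR 0.00987) in 7 of 8. This call was lost without animal 3 (0.98) and without animal 6 (0.88), the only animals left out in turn in this comparison. DRD1 was under the fold asked for (−0.77, FDR 0.0242), and DRD3 did not pass (−0.64, FDR 0.392). In HTHA, 18.5% of genes were called, and all members but DRD5 were (−0.68, FDR 0.124, also −0.68 without animal 6). DRD2 (3.01, SE 0.37), DRD3 (2.83, SE 0.42) and DRD4 (2.79, SE 0.33) were higher than in the cortex in 8 of 8 animals, and at 3.14, 3.04 and 2.84 without animal 6. DRD1 was lower (−2.21, SE 0.32), and at −2.85 without animal 6, whose HTHA library had 49 CPM of DRD1 where the other animals had 3.77 to 11.3 CPM. In OB, 22.4% of genes were called, and DRD1 was lower (−4.06, SE 0.36) while DRD2 (1.26, SE 0.37) and DRD3 (2.41, SE 0.42) were higher. DRD5 in OB was just under the fold asked for (0.97, SE 0.36, FDR 0.0138), and DRD4 did not pass (−0.46, FDR 0.441). Scaling by DESeq2's size factors in place of TMM raised the median log2 fold change of all genes by 0.12 in AMY, 0.11 in PA, 0.11 in HTHA and 0.10 in OB, and DRD5 in OB was then called (1.07).

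The globus pallidus borders the striatum and receives its axons. In GP against the striatum, 29.5% of genes were called, and 4 of 5 members were. DRD1 in GP was at 1.67 to 14.3 CPM in 7 animals and 62.7 CPM in animal 3, against a striatal mean of 466 CPM (log2 fold change −5.26, SE 0.36, and −6.13 without animal 3). DRD2 was lower by a log2 fold change of −4.64 (SE 0.40, −5.27 without animal 3) and DRD3 by −4.97 (SE 0.47, −6.50 without animal 3). DRD4 was higher in GP in 7 of 8 animals (1.95, SE 0.42, 2.12 without animal 3), and DRD5 did not pass (−0.13, SE 0.40, FDR 0.785, −0.08 without animal 3). The GP library of animal 3 also had the highest sum of medium spiny neuron markers, as given above, and the part of those markers in its receptor levels was not tested.

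**Figure D3:**
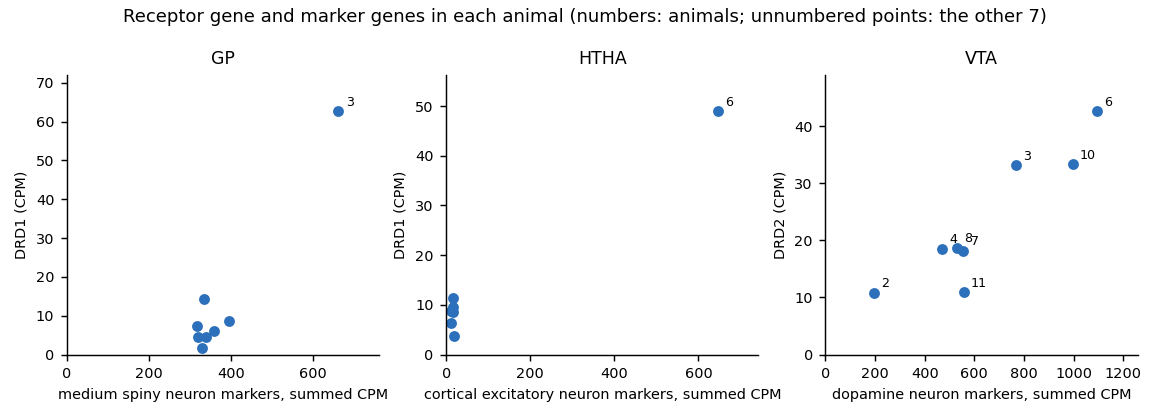
Receptor level against summed marker level in CPM, 1 point per animal: DRD1 against medium spiny neuron markers in GP, DRD1 against cortical excitatory neuron markers in HTHA, and DRD2 against dopamine neuron markers in VTA. In GP animal 3 (62.7 CPM of DRD1) and in HTHA animal 6 (49 CPM) lie apart on both axes. By median counts, ALDH1A1 is the largest part of the marker sum in VTA.

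The dopamine neuron regions differed most in DRD2. In SN against VTA, 5.82% of genes were called, and DRD2 was higher in SN in 8 of 8 animals, at means of 293 against 23.5 CPM (log2 fold change 3.59, SE 0.38, FDR 1.34e-13). The lowest SN value, 151 CPM, lay above the highest VTA value of 42.8 CPM. DRD5 was lower in SN (−1.89, SE 0.49, FDR 0.00172). DRD3 (−1.53, FDR 0.0667), DRD4 (−0.53, FDR 0.267) and DRD1 (−0.39, FDR 0.478) did not pass, although DRD1 was lower in SN than in VTA in 8 of 8 animals. Along with DRD2, 6 of 9 tested genes for dopamine synthesis, storage and clearance were higher in SN and 0 were lower, led by the dopamine transporter SLC6A3 (4.51), ALDH1A1 (3.42), an enzyme of dopamine neurons, and TH (3.29), the rate-limiting enzyme of dopamine synthesis (median 2.69, all genes −0.0002). TH was at 784 to 1892 CPM in the SN libraries and at 14.9 to 336 CPM in the VTA libraries. The summed dopamine neuron markers were lower in VTA than in SN, as DRD2 was, and their part in the difference was not tested.

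The potassium channel subunit KCNJ6, which couples D2 receptors to hyperpolarisation in dopamine neurons, was the 1 gene of 16 G proteins and effectors higher in SN (2.79), and 0 were lower (median 0.21). KCNJ6 had 26 to 176 counts in the SN libraries and 4 to 16 in the VTA libraries. Of the 5 direct-pathway genes 0 were higher and 4 were lower in SN, among them TAC1 (−3.79) and PDYN (−1.34, FDR 0.0496) (median −1.34). ISL1, also of this list, had 0 to 2 counts in the SN libraries and 0 to 29 in the VTA libraries. Of the 4 indirect-pathway genes SP9 was higher (2.04) and PENK lower (−1.77) (median −0.57), and of 19 regulators 0 were called (median 0.27). SP9 had 13 to 25 counts in the SN libraries and 0 to 8 in the VTA libraries.

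Against the lower brainstem (PON and MO), 6.86% of genes were called in SN and VTA, and 4 of 5 members were. DRD2 (5.14, SE 0.32) and DRD1 (1.08, SE 0.29) were higher, and DRD5 was lower (−1.34, SE 0.32). DRD3 was called as higher too, but PON had 0 counts in 7 of 8 libraries, so its fitted fold is no measure of size. The mean DRD3 level of MO (0.768 CPM, median 0.447) lay above that of SN (0.331 CPM, median 0.227) and below that of VTA (0.971 CPM, median 0.472). The DRD3 call was lost without animal 6 (1.67). DRD4 was under the fold asked for (0.65, SE 0.26).

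In PIT against HTHA, the adjoining centre that controls it, 37.5% of genes were called. DRD2 was higher in PIT in 8 of 8 animals, at means of 99.6 against 19.3 CPM (log2 fold change 2.53, SE 0.37, 2.24 without animal 6). DRD1 was lower in PIT in 7 of 8 (−2.56, SE 0.38), and at −1.77 without animal 6. DRD3 and DRD5 were at the floor in PIT, with at most 2 counts per library, and with 3 counts per library as the floor HTHA was at least 10.7-fold higher for DRD3 and at least 7.35-fold higher for DRD5. DRD4 did not pass (−0.07, SE 0.35, FDR 0.873, −0.31 without animal 6).

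Within the hippocampus, 3.18% of genes were called in DG against CA1 and CA3, and DRD1 was 1 of the 2 members tested and was lower in DG in 8 of 8 animals (−1.38, SE 0.28, FDR 0.000827). DRD2 did not pass (0.28, SE 0.30, FDR 0.470). Between CA1 and CA3, 0.0203% of genes were called (3 genes, 0 without animal 7 and 24 without animal 11), and neither DRD1 (−0.03, SE 0.29, FDR 0.997) nor DRD2 (0.12, SE 0.35, FDR 0.996) passed. DRD3, DRD4 and DRD5 had too few counts in the hippocampal libraries to be tested.

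Among the 31 cortical sub-regions, 77.3% of the genes tested differed by the F test, and 4 of 4 members tested did (DRD1 FDR 9.1e-35, DRD2 2.1e-11, DRD3 6.7e-14 and DRD5 7.0e-16). For comparisons of the lobes, counts were summed within lobe and animal and a gene was called at an FDR under 0.05 with no fold asked for. Any difference among the 5 lobes was called for 61.1% of genes, and for DRD1, DRD2, DRD3 and DRD5 but not for DRD4 (FDR 0.728). The mean DRD1 level was 60.7 ± 5.70 CPM in the parietal lobe, 59.8 ± 8.74 in the frontal, 57.4 ± 6.12 in the limbic, 52.9 ± 5.84 in the temporal and 40.4 ± 7.43 in the occipital lobe. DRD5 ordered the lobes differently, with 4.27 ± 1.21 CPM in the limbic lobe, 3.05 ± 0.800 in the frontal, 2.72 ± 0.852 in the temporal, 2.41 ± 0.388 in the parietal and 1.70 ± 0.714 in the occipital lobe.

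The occipital lobe, home of the visual cortex, was lowest for DRD1, DRD2, DRD3 and DRD5. Against the other lobes, 55.1% of genes were called, and DRD1 (−0.53, SE 0.05), DRD2 (−0.84, SE 0.13), DRD3 (−0.81, SE 0.22) and DRD5 (−0.84, SE 0.14) were each lower, while DRD4 did not pass (−0.37, SE 0.34, FDR 0.372). In the frontal lobe against the others, 43.5% of genes were called, and of the members DRD1 was (0.20, SE 0.05, FDR 0.00102). DRD5 (0.24, FDR 0.0861), DRD2 (0.19, FDR 0.126), DRD3 (0.12, FDR 0.527) and DRD4 (−0.03, FDR 0.926) did not pass. With so large a share of all genes called, the count of members called is not a result about the receptors. In the occipital lobe, 4516 of all 17478 genes tested were called higher and 5117 lower (median −0.01). Of 19 regulators, 1 was higher and 11 were lower (median −0.18). In the dopamine synthesis, storage and clearance list 0 of 8 were higher and 6 lower (median −0.30). Of 16 G proteins and effectors, 3 were higher and 7 lower (median 0.01). Of 4 direct-pathway genes 1 was higher and 0 lower (median −0.12), and of 4 indirect-pathway genes 1 was higher and 1 lower (median −0.14).

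**Figure D4:**
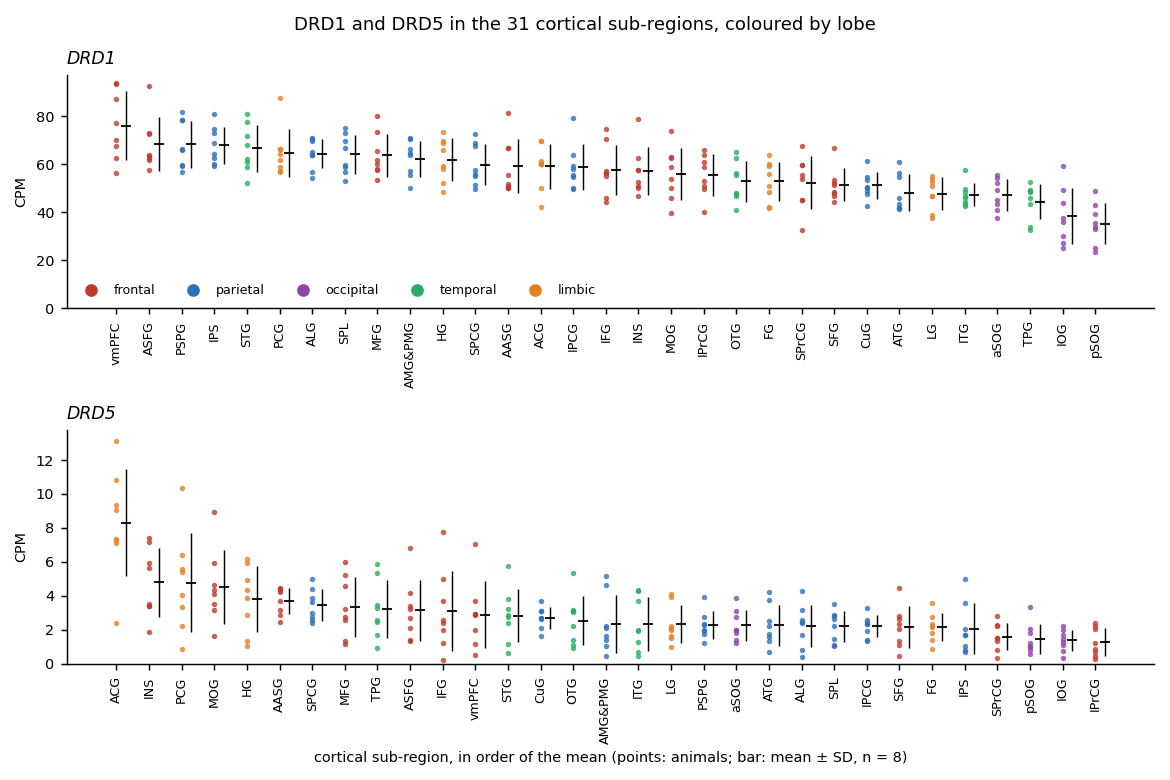
DRD1 and DRD5 levels in CPM in the 31 cortical sub-regions, coloured by lobe, with points for the 8 animals and bars for the mean ± SD. DRD1 has its lowest means in pSOG and IOG (35.4 and 38.6 CPM), and DRD5 its highest in ACG (8.31 CPM).

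Age was compared as mid-aged against young with sex as a covariate, with 4 animals in each group, and a gene was called at an FDR under 0.1 and a fold change above 2. No member tested was called in the striatum, cortex, SN or PIT. DRD4 in the striatum, and DRD3 and DRD5 in SN and PIT, had too few counts to be tested. The share of genes called was 0% in the striatum (875 genes at an unadjusted p under 0.05, and 25 genes called by DESeq2), 0% in the cortex (1086 genes, and 76 by DESeq2), 0.00684% in SN and 0.233% in PIT. In the striatum DRD1 (−0.09, SE 0.13), DRD2 (−0.12, SE 0.14), DRD3 (−0.05, SE 0.21) and DRD5 (0.26, SE 0.43) had FDRs of 0.975 to 0.991, and their age groups overlapped.

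DRD2 had its lowest unadjusted p-values for age in the other places. In SN it was at 151, 220, 239 and 284 CPM in the mid-aged animals and at 305, 317, 383 and 442 CPM in the young, so that the groups did not overlap (−0.70, SE 0.20, unadjusted p = 0.00636 and FDR 0.402 by edgeR). In the cortex it was at 1.44, 1.46, 1.78 and 2.04 CPM in the mid-aged and at 2.06, 2.81, 2.92 and 4.52 CPM in the young, again without overlap but with the nearest values at 2.04 and 2.06 CPM (−0.87, SE 0.26, unadjusted p = 0.00888 and FDR 0.740 by edgeR). In PIT the direction was the opposite, with 83.6, 120, 141 and 186 CPM in the mid-aged and 53.2, 53.2, 57.1 and 101 CPM in the young, and the groups overlapped (1.00, SE 0.24, unadjusted p = 0.0025 and FDR 0.272 by edgeR, called by DESeq2 at 1.04 and FDR 0.0126). None of these passed the adjustment in edgeR. The share of all genes whose age groups did not overlap was not counted. By edgeR, 1584 of 14619 genes in SN had an unadjusted p under 0.05 for age. In the cortex 1086 of 19822 genes did, and in PIT 1067 of 14595. The summed anterior pituitary markers in PIT ran from 44625 to 347003 CPM in the mid-aged and from 30888 to 48935 CPM in the young libraries, and their part in the DRD2 values was not tested.

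**Figure D5:**
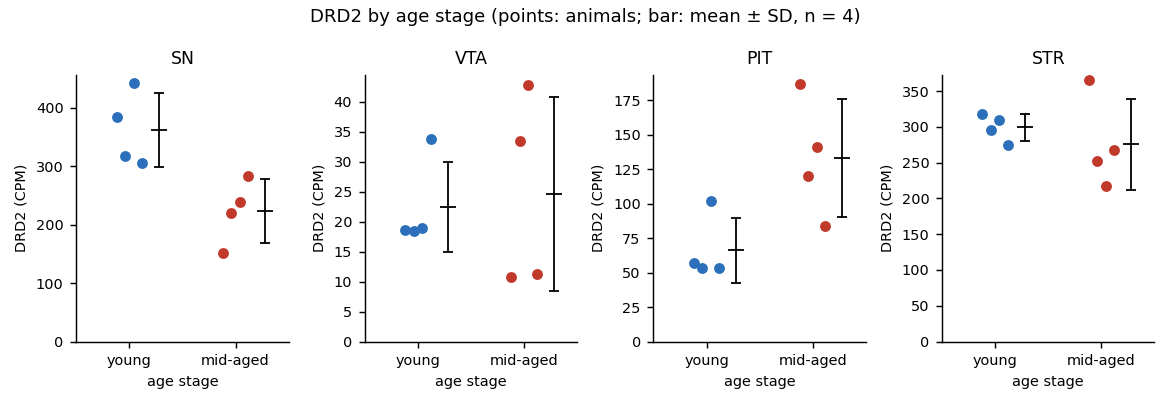
DRD2 levels in CPM in SN, VTA, PIT and the striatum, for the 4 young and 4 mid-aged animals, with points for animals and bars for the mean ± SD. The groups do not overlap in SN, where the mid-aged animals reach 284 CPM and the young start at 305 CPM, and overlap in the other panels. The share of all genes whose age groups do not overlap was not counted.

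The log2 ratio of DRD2 in STR to that in the cortex was 6.97 ± 0.40 in the mid-aged and 6.43 ± 0.32 in the young animals, a difference of 0.54 that did not pass (exact permutation test of 4 against 4 animals, two-sided p = 0.0571, where the smallest possible is 0.0286). The log2 ratio of SN to PIT was 0.77 ± 0.84 in the mid-aged and 2.48 ± 0.26 in the young animals. This pair was chosen because of its opposite directions, so the difference of −1.71 is a description.

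Sex was compared in the same fits, as female against male with 4 animals each. The share of genes called was 0.105% in the striatum, 0.0908% in the cortex, 0.0958% in SN and 0.123% in PIT. No member tested was called in any of these places, and the members not tested were those named for age. DRD4 was at 1.06, 1.42, 2.32 and 2.95 CPM in the SN of the females and at 0.345, 0.355, 0.547 and 0.773 CPM in the males (1.78, SE 0.48, unadjusted p = 0.0042 and FDR 1.0 by edgeR). In PIT it was at 0.907, 1.46, 2.16 and 2.45 CPM in the females and at 0.273, 0.474, 0.696 and 0.833 CPM in the males (1.66, SE 0.46, unadjusted p = 0.00573 and FDR 0.222 by edgeR). The sexes did not overlap in either place, on at most 27 DRD4 counts per library, and neither difference passed the adjustment. DRD3 in SN did not overlap either, at 0.325 to 0.873 CPM in the females and 0.109 to 0.129 CPM in the males. Its SN libraries held at most 8 counts, too few to be tested. The share of all genes whose sexes did not overlap was not counted. By edgeR, 175 of 14619 genes in SN and 3083 of 14595 in PIT had an unadjusted p under 0.05 for sex. DRD4 in the cortex (0.84, SE 0.44, FDR 1.00) did not pass, and the sexes overlapped there.

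Over the 51 sub-region means, Pearson's r of log2(CPM + 1) was computed between each receptor and 11883 genes as a description of likeness. These points share animals and libraries, and no test is attached. The genes most like DRD1 were PPP1R7 (r 0.940), METTL9 (0.938) and PTPN5 (0.937), the last a phosphatase enriched in the striatum. DRD2 was most like SIX3 (0.884), a transcription factor of striatal development, MLF1 (0.869) and MAMU-DOA (0.865). DRD3 was most like HTR1D (0.953), a serotonin receptor, VTCN1 (0.906) and ZPLD1 (0.897). DRD4 was most like CANX (0.863), SLC25A20 (0.859) and IRX3 (0.859), and DRD5 most like NPAS4 (0.725), a neuronal activity-induced transcription factor, ALPL (0.688) and WNT7A (0.687). Between members, r was 0.707 for DRD2 and DRD3, 0.459 for DRD1 and DRD3, 0.134 for DRD1 and DRD2 and −0.521 for DRD1 and DRD4.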

How the data were processed

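The authors checked reads with FastQC 0.11.4, trimmed those of samples of poor quality with Trim Galore 0.4.4, aligned reads with HISAT2 2.0.5 to Mmul 8.0.1 and counted them per Ensembl gene with HTSeq 0.6.1; HTSeq's strand and overlap options are not given in the sources used here. The deposited values are raw counts per gene. Symbols came from a table of gene names, for 17572 of 30807 genes. The series' 8 midbrain libraries and 33 ATAC-seq libraries were not analysed here, and no sequences or transcript lengths were used.

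The receptors and gene lists were chosen with earlier results of these data known. Of the pathway lists, GNAL, GNG7, GNAI2, GNAQ, KCNJ9, PRKAR1B, RGS2, ARPP19, SLC35D3, ADORA2A and GPR52 matched no identifier. Of each list, the up to 3 called genes of largest fold change in each direction were named within the striatum, for the striatum against the cortex and for SN against VTA, and, for likeness, the 3 genes of highest r among those reaching a mean of 5 CPM in some sub-region.

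Counts were tested with edgeR 4.0.16 (R 4.3.3, filterByExpr, TMM, quasi-likelihood F test, Benjamini-Hochberg adjustment) with the animal as a block between places, and age and sex together between animals. The fits over all libraries and over all cortical libraries used the dispersion of glmQLFit alone. SEs are the absolute log2 fold change divided by the square root of F. The labels' macaque number pairs the libraries. Deviations from the sub-region means correlated at a median of 0.445 within an animal and −0.061 between animals. No 2 libraries of a sub-region were identical. The labels name no batch.

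Alternatives were DESeq2 1.42.0, size factors, a looser count filter, a stricter fold, no block or covariate, library sizes, another pseudocount and leaving out animals (leave-outs over region groups were limited to animals 3 and 6; these, apart from animal 6 in HTHA contrasts, and those for the striatum, hippocampus and lobes were chosen after seeing the data). On simulated counts with 200 changed genes, 199 were recovered at 4-fold for ACb against CN and PUT, 193 for the striatum against the cortex and 197 for age in the striatum. At 2-fold, 193 were recovered for the occipital lobe and 194 of 200 for the cortical F test on 3000 genes. Every simulated gene had the same fixed dispersion, and the age simulation added no further spread between animals. Recovery therefore checks that the fits run as meant and does not measure power at the real spread. Floors were 3 counts per library and cover counting error only. p-values measure the spread between these 8 animals.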

Additional observations from a re-analysis of the deposited data

Results flagged for a closer look

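In 18 of 156 tested groups of 8 libraries with a mean of at least 1 CPM, the highest library stood apart from the others by Dixon's criterion (0.526 for 8 values). For independent, normally distributed values it marks about 1 group in 20. CPM were used without a log scale and the groups share animals and libraries, so the 18 cannot be set against that rate. Values are CPM.

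Animal 3 stood apart in GP for DRD1 (62.7, others 1.67 to 14.3), DRD2 (42.5, others 3.41 to 15.1) and DRD3 (7.41, others 0 to 0.804), the library with the highest medium spiny neuron markers, and in the inferior temporal gyrus for DRD1 (57.6, others 42.7 to 49.7). Animal 6 stood apart in HTHA for DRD1 (49, others 3.77 to 11.3), the library with 646 CPM of cortical excitatory neuron markers.

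Animal 4 had the highest DRD2 in the intraparietal sulcus (5.02), lingual gyrus (6.89), PCG (10.7), ACG (5.45) and MO (27.3), with the other animals at or below 2.59, 3.33, 5.43, 2.42 and 7.97. Its MO and PON libraries also had the highest DRD5, at 9.90 (others 0.960 to 3.57) and 4.90 (others 1.22 to 2.64).

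Animal 10 had the highest DRD1 in the posterior superior frontal gyrus (67.0, others 44.4 to 53.7), the anterior superior frontal gyrus (92.6, others 57.9 to 72.9) and PCG (87.8, others 56.9 to 66.3). It also had the highest DRD5 in ACb (5.88, others 1.03 to 2.00), in the ACb library with 311 CPM of cortical excitatory neuron markers. DRD2 stood apart in the vmPFC of animal 11 (7.21, others 0.688 to 2.82) and the CA3 of animal 8 (9.06, others 1.55 to 4.32).

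The DRD2 difference by age ran in opposite directions in SN and PIT, −1.71 apart on the log2 scale (exact permutation test, two-sided p = 0.0286, the smallest possible with 4 against 4). The pair was chosen after its values were seen, so that p is no independent support. None of the marker levels named here was tested as a cause.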

How the results depend on the processing

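Of 1699 alternative values, 1628 kept their direction and their side of the threshold, with the exception below, and values with no test moved by less than the spread between animals. A further 25 no longer passed, 10 newly passed and 36 changed sign. Changes of sign were not marked for age effects on STR to cortex or SN to PIT ratios that had not passed, so the 1628 can include some. The cause of a change was not tested except where the setting itself sets it.

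Asking for a fold above 4 removed, by its construction, DRD3 in HIP (−1.22), DRD4 and DRD2 in AMY (1.59 and 1.90), DRD1 in PA (−1.58), DRD2 in THA (1.11) and OB (1.26), DRD4 in GP against STR (1.95), DRD5 in SN against VTA (−1.89), and DRD5, DRD1 and DRD3 in SN and VTA against PON and MO (−1.34, 1.08 and 1.97). DRD3 in HIP also lost its call with DESeq2 (−1.24), size factors (−1.16), a looser count filter (−1.22) and no block (−1.11). DRD5 in OB gained one with DESeq2 (1.08) and size factors (1.07), and DRD2 by age in PIT with DESeq2 (1.04). Without pairing the animals by the block, DRD2 among lobes had an FDR of 0.0822, DRD4 in PIT against HTHA turned to 0.0074, and the DRD1 to DRD2 ratio in CN minus PUT stayed at 0.36 with an adjusted p of 0.132. With library sizes in place of TMM, the DRD2 age effect in STR against cortex was 0.544 (exact permutation p = 0.0286, against 0.539 and p = 0.0571 with TMM).

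Genes too thinly counted for the filter of the report were tested with the looser one. DRD4 was at 0.94 in ACb against CN and PUT, −0.15 in CN against PUT, −0.05 in CA1 against CA3, −0.30 in DG, −0.31 by age and 1.29 by sex in STR, and had an FDR of 0.0459 among cortical sub-regions. DRD5 was at 2.18 in CA1 against CA3, −3.57 in DG, 0.26 by age and 1.38 by sex in SN, and DRD3 at −0.17, −2.07, −0.22 and 2.06 in the same order. Of these, DRD5 and DRD3 were called lower in DG (FDR 0.0029 and 0.0337), where no library had more than 1 and 2 counts.

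Leaving out animals in turn gave, for DRD1, −0.21 to 0.20 in CA1 against CA3, −0.075 to 0.013 in CN against PUT, −0.19 to 0.0081 by age and −0.17 to 0.031 by sex in STR, −0.031 to 0.11 by age in cortex, −0.11 to 0.14 by sex in SN and −1.71 to −0.62 by sex in PIT. For DRD2 it gave −0.070 to 0.21 in CA1 against CA3, −0.11 to 0.48 in DG, 0.88 to 0.98 in THA, −0.11 to 0.35 by sex in cortex, −2.04 to −1.35 for the age effect in SN against PIT and 0.34 to 0.65 for that in STR against cortex. For DRD3 it gave −1.17 to −0.97 in HIP, 0.0014 to 0.048 in PA, 1.67 to 1.88 in SN and VTA, −0.23 to 0.18 by age and −0.048 to 0.36 by sex in STR. For DRD4 it gave −0.31 to 0.14 in PIT against HTHA, −0.036 to 0.10 in STR, −0.24 to 0.071 in the frontal lobe, −0.63 to 0.0075 by age in SN and 1.45 to 1.83 by sex in PIT, where it was called without animal 7. For DRD5 it gave 0.94 to 1.02 in OB, −1.07 to −0.68 in PA, 0.20 to 0.33 in the frontal lobe, −0.013 to 0.70 by age and −0.33 to 0.42 by sex in STR, and −0.15 to 0.15 by sex in cortex.

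Counts of genes called moved by over 1.5 times with DESeq2 for age in STR (0 to 25), cortex (0 to 76), SN (1 to 58) and PIT (34 to 157), for sex in cortex (18 to 35) and PIT (18 to 555), and for CA1 against CA3 (3 to 19). They moved with the looser filter for ACb (761 to 1200), DG (471 to 733), HIP (2094 to 3185) and CA1 against CA3 (3 to 5). With no block they moved for the occipital lobe (9633 to 6145), the frontal lobe (7599 to 3070) and any lobes (10675 to 5250). Without sex as a covariate, age in PIT gave 1 in place of 34 and age in STR 1 in place of 0. Asking for a fold above 4 left 220 genes for SN against VTA to 2863 for PIT against HTHA. CA1 against CA3 gave 0 to 24 genes, age in PIT 0 to 147 genes and sex in PIT up to 1984 when animals were left out, the highest in PIT without animal 7 and for CA1 against CA3 without animal 11. DRD3 outside the striatum, HTHA and OB, DRD4 everywhere and DRD5 in DG and PIT rest on few counts, which limits how finely their levels can be ordered.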
